A study of Mus musculus with 6 samples.

Results

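E-cadherin and its catenin partners form the adherens junctions that hold epithelial cells together, and 8 genes of this system were followed through the cell classes of the mouse small-intestinal epithelium. They were chosen by symbol from the 27998 genes of the deposited matrices, in which all 8 were present in each of the 6 libraries: Cdh1, Cdh17, Ctnnb1, Ctnna1, Ctnnd1, Jup, Vcl and Epcam. The series held 10x Genomics 3′ single-cell RNA libraries of small-intestinal epithelial cells from C57BL/6J mice aged 8 weeks. It had 3 libraries labelled Itgb7 KO and 3 wild-type (WT) libraries, each numbered 1 to 3. The labels give neither the form of the Itgb7 allele nor the number of animals behind a library, and every p-value here therefore reflects variation among 6 libraries that could be technical in origin. Itgb7 encodes the integrin β7 chain, which with the integrin αE chain forms the lymphocyte receptor for E-cadherin, and the comparison of the groups asks about epithelial cells of mice labelled as knockouts of this chain.

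A classical cadherin such as E-cadherin binds the same protein on the neighbouring cell and carries catenins on its cytoplasmic tail. β-catenin or plakoglobin links the tail to α-catenin, which in turn holds actin together with vinculin, while p120-catenin binds closer to the membrane and keeps the cadherin at the surface. In the intestine new cells arise from stem cells in the crypt, divide as transit-amplifying cells and move onto the villus as enterocytes, and they must stay attached to each other on the way.

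After filtering, 25076 cells remained, of which 24469 fell into clusters that marker genes could name as stem-like, transit-amplifying-like, lower-villus enterocyte-like, mature enterocyte-like, goblet-like, Paneth-like, enteroendocrine-like or tuft-like. The 8 genes and the other genes of the adhesion lists used here, 134 in all, were left out of the clustering. The names are rebuilt from markers and are not the study's. The lower-villus enterocyte-like class holds clusters 1, 4 and 7. Fabp6, a gene of the distal small intestine, leads cluster 1 and is among the leading genes of cluster 4. Position on the villus and intestinal region therefore cannot be told apart in this class. Library totals ran from 28475253 to 62224718 UMIs (unique molecular identifiers, each marking 1 captured RNA molecule) in the libraries labelled Itgb7 KO, against 63316811 to 76133693 in WT, and median UMIs per barcode ran from 6079.5 to 19529 in the libraries labelled Itgb7 KO and from 11920.5 to 22384 in WT. The smallest total of any barcode differed between libraries, from 1417 to 13621, and at most 42 barcodes were shared by a pair of libraries. UMIs of Itgb7 itself were few in every library and went against the labels, with 18, 33 and 12 in the libraries labelled Itgb7 KO and 3, 8 and 2 in WT. A 3′ tag may lie outside the deleted part of the gene, so this count does not check the genotype. Over all kept cells Epcam, itself 1 of the 8 genes, had 1435 to 1889 CPM (counts per 1000000 UMIs). Markers of other cells were sparse, with 6 fibroblast markers summing to at most 0.0339 CPM in any library. The highest sums were 1.42 CPM for endothelial, 2.28 for B or plasma cell, 3.96 for T-cell and 3.98 for myeloid markers.

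Of the 8 genes, 5 had an entry in the RefSeq promoter table for GRCm38.p6 (Ctnnb1, Ctnnd1, Jup, Vcl and Epcam), which gives 250 bases before and 50 after a RefSeq transcript start of each gene. The 3 printed below are those of the catenin that differed most between mature enterocyte-like and stem-like cells, of the catenin that differed least, and of the cell-surface protein Epcam. Where the table has several starts, the one nearest to the annotated 5′ end of the gene was taken. The Ctnnb1 window lies inside the GENCODE span of its gene given further on, downstream of the 5′ end annotated there. Each window is written on the strand of its gene, and capitals mark every match on either strand to 1 of 5 motifs. The E-box core, bound by Snail-type repressors, was searched as CAGGTG. The core of sites for Cdx factors was searched as TTTAT. The Hnf4 site was searched as CAAAGTCCA. The GC box was searched as GGGCGG, and the CCAAT box by its own letters. No match overlaps another.
Ctnnd1, chr2:84650691-84650990, minus strand: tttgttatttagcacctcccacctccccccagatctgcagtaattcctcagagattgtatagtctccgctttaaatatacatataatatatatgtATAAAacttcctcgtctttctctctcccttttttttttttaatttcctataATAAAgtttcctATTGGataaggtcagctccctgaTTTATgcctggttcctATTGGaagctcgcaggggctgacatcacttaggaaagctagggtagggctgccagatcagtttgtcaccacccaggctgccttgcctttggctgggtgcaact
Ctnnb1, chr9:120933150-120933449, plus strand: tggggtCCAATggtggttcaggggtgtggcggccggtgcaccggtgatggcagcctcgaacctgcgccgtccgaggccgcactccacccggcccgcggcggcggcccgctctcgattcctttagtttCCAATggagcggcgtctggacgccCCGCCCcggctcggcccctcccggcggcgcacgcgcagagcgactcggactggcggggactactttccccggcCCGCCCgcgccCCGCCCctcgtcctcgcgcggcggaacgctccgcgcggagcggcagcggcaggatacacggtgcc
Epcam, chr17:87635729-87636028, plus strand: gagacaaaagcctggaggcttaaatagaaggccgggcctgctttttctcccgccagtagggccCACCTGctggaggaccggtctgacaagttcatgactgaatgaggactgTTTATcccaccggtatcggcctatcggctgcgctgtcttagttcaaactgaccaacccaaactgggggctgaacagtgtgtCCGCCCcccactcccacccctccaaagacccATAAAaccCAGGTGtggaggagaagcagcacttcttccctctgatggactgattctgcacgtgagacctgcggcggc
The Ctnnd1 window held 3 matches to the Cdx core and 2 to the CCAAT box, and the Ctnnb1 window 3 GC boxes and 2 CCAAT boxes. The Epcam window held 2 matches to the E-box core, 2 to the Cdx core and 1 GC box. Of 32851 mouse promoters in the table, 20.2% held the E-box core, 40.0% the Cdx core, 0.475% the Hnf4 site, 35.7% the GC box and 37.4% the CCAAT box. A match is a description of letters and not a bound site.

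On GRCm38, in the GENCODE annotation, Cdh1 (ENSMUSG00000000303) lies at chr8:106603351-106670246 and Cdh17 (ENSMUSG00000028217) at chr4:11758147-11817895, both on the plus strand. Ctnnb1 lies at chr9:120929216-120960507, Ctnna1 at chr18:35118859-35254779, Vcl at chr14:20929398-21033676 and Epcam at chr17:87635979-87651129, also on the plus strand. Ctnnd1, at chr2:84600071-84650765, and Jup, at chr11:100368958-100397763, lie on the minus strand. Counted genes overlap some of them on the other strand (4930593C16Rik and Ulk4 at Ctnnb1, Lrrtm2 at Ctnna1, Ap3m1 at Vcl), and whether counting used strand is not given in the sources used here.

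All 8 genes were higher in mature enterocyte-like cells than in stem-like cells, in every one of the 6 libraries. Cdh17, the intestinal cadherin, rose most, 3.2-fold, followed by Ctnnd1, which encodes p120-catenin, at 2.07-fold. The other 6 genes rose by 1.3-fold to 1.61-fold. These folds come from a fit with trimmed-mean (TMM) scaling of the sums. On the log2 scale they exceed, for each gene, the median CPM ratio within a library, which ran from 0.13 (Epcam) to 1.37 (Cdh17). With total UMIs as the only scaling the log2 fold changes were 0.13 (Epcam) to 1.44 (Cdh17). Class differences were tested on UMI sums per class and library by edgeR's quasi-likelihood method, with library as a block and Benjamini-Hochberg adjustment over 13254 genes, and "rose" or "called" means an adjusted p under 0.05. In this contrast 36.6% of all genes tested were called higher and 40.0% lower, so a call alone is common, and the median log2 fold change was 0.61 over the 8 genes and -0.08 over all genes.

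**Figure D1:**
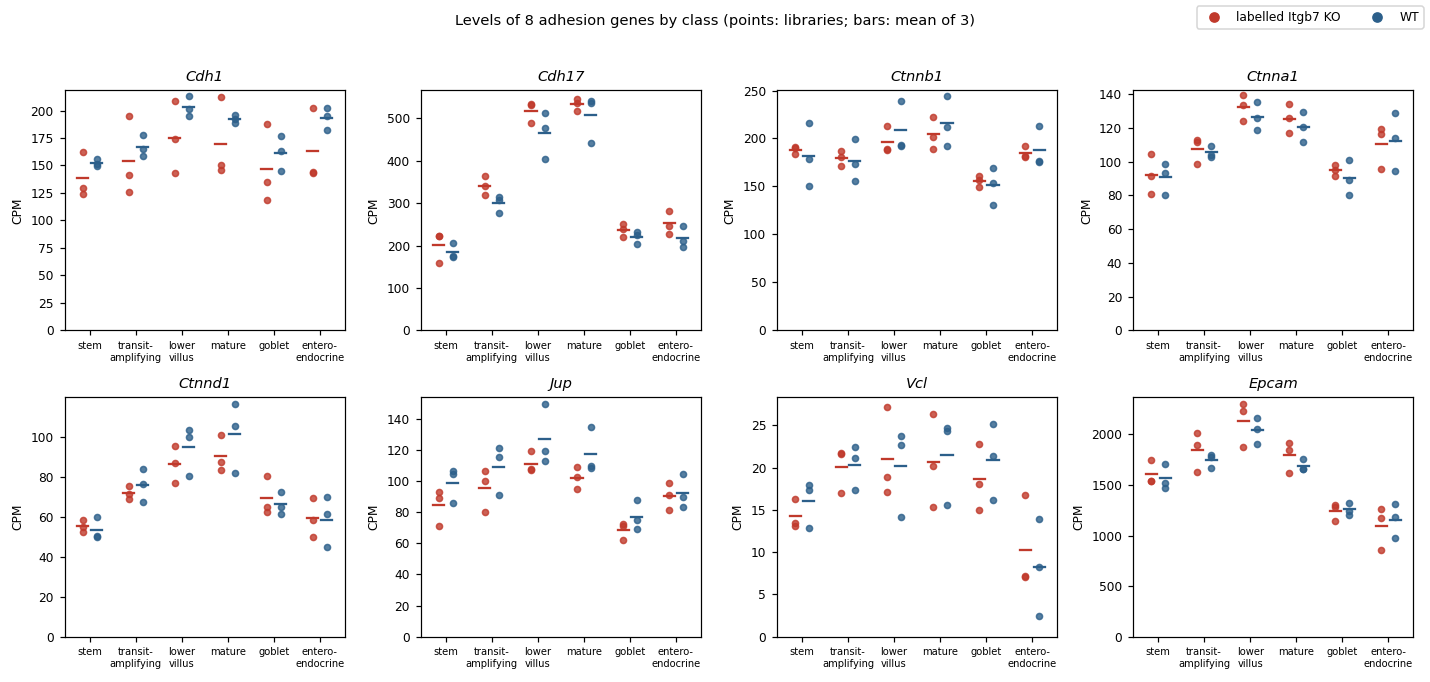
Levels in CPM of the 8 genes in 6 classes, with 1 point for each library labelled Itgb7 KO (red) and WT (blue) and a bar at the mean of 3. Cdh17 climbs from stem-like to mature enterocyte-like cells, Epcam is highest in lower-villus enterocyte-like cells, and the points of the groups overlap in nearly every class.

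Among the cadherins, Cdh17 encodes a cadherin with a short cytoplasmic tail that does not bind catenins. In mature enterocyte-like cells it had 536, 547 and 517 CPM in the libraries labelled Itgb7 KO 1 to 3 and 542, 537 and 443 CPM in WT 1 to 3. In stem-like cells it had 159, 222 and 223 CPM in the libraries labelled Itgb7 KO and 175, 206 and 172 CPM in WT. Every mature value lay above every stem value, and the log2 fold change was 1.68 ± 0.06 (SE; edgeR adjusted p = 6.62e-25). Transit-amplifying-like cells stood between these classes, at 277 to 364 CPM over the 6 libraries, and Cdh17 there was 0.80 ± 0.06 higher than in stem-like cells on the log2 scale. A further 0.71 ± 0.06 separated lower-villus enterocyte-like from transit-amplifying-like cells.

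Cdh1, which encodes E-cadherin, moved less. It had 212, 150.5 and 145.6 CPM in mature enterocyte-like cells of the libraries labelled Itgb7 KO 1 to 3, and 193, 189 and 196 CPM in those of WT. In stem-like cells the values were 162, 124 and 129 CPM in the libraries labelled Itgb7 KO and 156, 151 and 149 CPM in WT. The ranges of the classes overlap across libraries, and within each library the mature value was the higher one. The log2 fold change with library as a block was 0.55 ± 0.05 (edgeR adjusted p = 5.66e-14). The log2 ratio of CPM within a library ran from 0.17 to 0.39.

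Of the catenins that bind the tail of E-cadherin, Ctnnd1 (p120-catenin) differed most. It had 87.4, 83.5 and 100.7 CPM in mature enterocyte-like cells of the libraries labelled Itgb7 KO and 81.8, 116 and 106 CPM in those of WT. Its stem-like values were 52.5, 55.0 and 58.5 CPM in the libraries labelled Itgb7 KO and 50.5, 59.8 and 50.01 CPM in WT. No mature value fell within the range of the stem-like values, and the log2 fold change was 1.05 ± 0.07 (edgeR adjusted p = 8.85e-18). Ctnnd1 shares its strand with an overlapping annotated gene, Gm28635, so the way reads were assigned between them is uncertain.

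Ctnnb1 encodes β-catenin, which also acts in the nucleus as the effector of Wnt signalling. It averaged 210.3 ± 20.7 CPM in mature enterocyte-like cells and 185.0 ± 21.3 CPM in stem-like cells (SD, n = 6 libraries), and its log2 fold change of 0.43 ± 0.04 had an edgeR adjusted p of 1.61e-11. Between transit-amplifying-like and stem-like cells it was the one gene of the 8 that was not called, at 0.01 ± 0.04 (95% interval -0.07 to 0.10, edgeR adjusted p = 0.872), and DESeq2 called it lower there, at -0.07 (adjusted p = 0.0426). Jup encodes plakoglobin, a relative of β-catenin that also serves desmosomes, and it averaged 109.7 ± 13.4 CPM in mature enterocyte-like and 91.6 ± 12.9 CPM in stem-like cells. Its log2 fold change was 0.50 ± 0.05 (edgeR adjusted p = 1.63e-11).

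The genes of the link to actin rose as well. Ctnna1 encodes α-catenin and averaged 123 ± 8.30 CPM in mature enterocyte-like and 91.6 ± 9.68 CPM in stem-like cells (SD, n = 6), a log2 fold change of 0.66 ± 0.05 (edgeR adjusted p = 1.01e-14). Vcl encodes vinculin, which α-catenin recruits under tension, and was sparse, with 109 to 293 UMIs per library in mature enterocyte-like cells and 70 to 179 in stem-like cells. Its levels were 21.1 ± 4.78 CPM in mature enterocyte-like and 15.2 ± 2.32 CPM in stem-like cells, with overlapping ranges. The log2 fold change of Vcl was 0.69 ± 0.10 (edgeR adjusted p = 1.22e-07), and 0.48 ± 0.10 of difference was already present between transit-amplifying-like and stem-like cells.

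Epcam encodes a cell-surface protein of epithelia that is not a cadherin and is known to influence junctions built on E-cadherin and on claudins. Its mean level was highest in lower-villus enterocyte-like cells. In lower-villus enterocyte-like cells it had 2228, 2300 and 1871 CPM in the libraries labelled Itgb7 KO and 2051, 2164 and 1907 CPM in WT. In mature enterocyte-like cells it had 1842, 1915 and 1623 CPM in the libraries labelled Itgb7 KO and 1663, 1761 and 1654 CPM in WT, lower than in lower-villus enterocyte-like cells of the same library in 6 of 6 libraries. The log2 fold change of mature over lower-villus enterocyte-like cells was -0.17 ± 0.07 (95% interval -0.31 to -0.04), which missed the threshold (edgeR adjusted p = 0.0561) and passed it with DESeq2 (-0.18, adjusted p = 0.0013). Against stem-like cells, at 1468 to 1750.0 CPM, mature enterocyte-like cells were 0.37 ± 0.07 higher on the log2 scale (edgeR adjusted p = 9.09e-06).

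**Figure D2:**
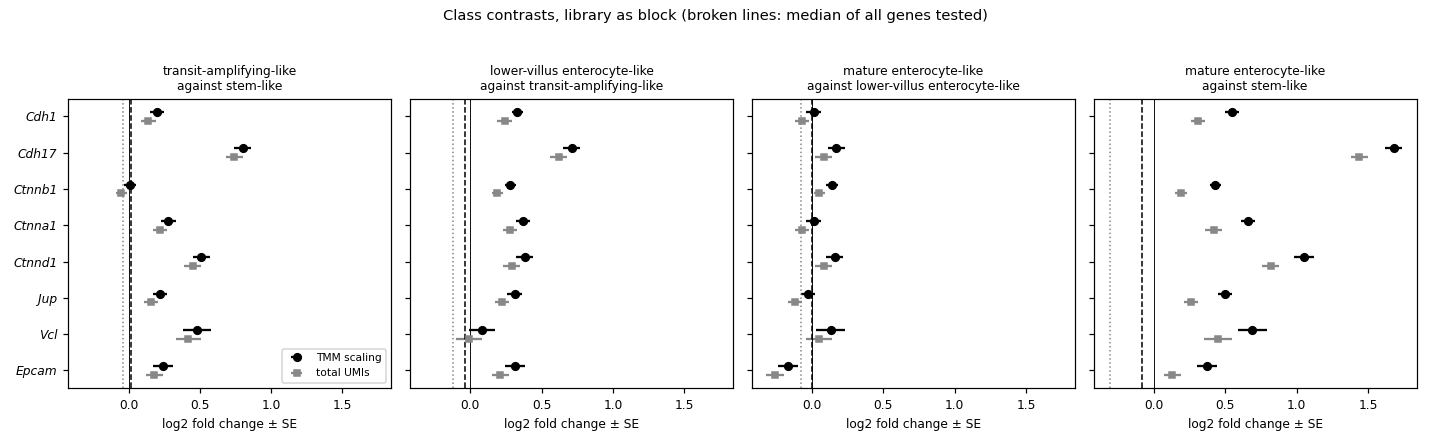
Log2 fold changes ± SE of the 8 genes for each step from stem-like to mature enterocyte-like cells and for the whole way, with the trimmed-mean (TMM) scaling of the test (black) and with total UMIs as the only scaling (grey). All 8 genes lie above 0 in the right-hand panel under both scalings, and broken lines mark the median of all genes tested.

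The steps differed in how many of the 8 genes moved. Between transit-amplifying-like and stem-like cells 7 of 8 rose, by 0.20 to 0.80 on the log2 scale, where 28.7% of all genes were called higher. Between lower-villus enterocyte-like and transit-amplifying-like cells 7 of 8 rose again, by 0.28 to 0.71, where 29.3% of all genes were called higher, and Vcl was the exception at 0.08 ± 0.09 (edgeR adjusted p = 0.463). Between mature and lower-villus enterocyte-like cells 3 of 8 were called higher (Cdh17 by 0.17, Ctnnd1 by 0.16 and Ctnnb1 by 0.14), where 17.1% of all genes were, and this last count was fragile. None of the 3 was called without WT 1, without WT 2 or without the library labelled Itgb7 KO 2, only Ctnnb1 was without WT 3 or the library labelled Itgb7 KO 1, and Epcam was called lower (-0.17) without WT 1. The first step held 7 genes without the droplets scored as doublets and 2 (Cdh17 by 0.32 and Ctnnd1 by 0.24) with them kept. Keeping them also meant clustering and naming all cells anew, so the classes changed as well. A cluster led by Rbp7 and Cdkn3 was then named lower-villus enterocyte-like, whereas cluster 8, led by Cdkn3 and Rbp7, is transit-amplifying-like. A cluster with 840 cells, led by Ifitm3 and the stem marker Ascl2, was then named transit-amplifying-like. Another with 1263 cells, led by Rrm2 and Hells, was left unnamed. The part of the kept doublets or of the changed classes was not tested.

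Class differences depend on how libraries are scaled, and CPM divides by all UMIs of a class. With total UMIs as the only scaling, the median of all genes between mature enterocyte-like and stem-like cells was -0.31, against -0.08 with TMM, and the 8 genes were 0.13 (Epcam) to 1.44 (Cdh17) higher, all called. Relative to the median of all genes the values were 1.75 with TMM and 1.74 with total UMIs for Cdh17 and 0.63 and 0.62 for Cdh1. A change of scaling moves all genes by nearly the same amount, so this likeness is built in and tests nothing. Median UMIs per cell overlapped between the classes, at 6384 to 21059 per library in mature enterocyte-like cells and 5838 to 23152 in stem-like cells. Mitochondrial transcripts took 44600.0 to 61300.0 CPM in mature enterocyte-like cells and 33000.0 to 50100.0 CPM in stem-like cells over the 6 libraries, and genes of the dissociation response summed to 1450.0 to 2990.0 CPM in mature enterocyte-like cells and 837 to 1910.0 CPM in stem-like cells. Genes of the proximal small intestine summed to 5490 to 12100 CPM in mature enterocyte-like and 388 to 513 CPM in stem-like cells. Region and maturation cannot be told apart in this contrast. The part of mitochondrial, dissociation or proximal genes in the rise was not tested.

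Within the classes, clusters differed in their level of Cdh17. The stem-like clusters 12, 14 and 23 averaged 186, 189 and 206 CPM. Among the transit-amplifying-like clusters, 9, 10, 13 and 15 averaged 264 to 299.6 CPM, while cluster 22 averaged 393 ± 29.1 CPM and cluster 8 averaged 440.0 ± 35.9 CPM (SD over 6 libraries; clusters 9, 15 and 23 had enough cells in 4). Cluster 8 also held Rbp7, a marker of lower-villus enterocytes, among its leading genes, and its Epcam level of 2153 ± 189 CPM was the highest of any named cluster. The enterocyte-like clusters measured in all 6 libraries averaged 443 to 556 CPM of Cdh17. Cdh1 spanned a narrower range, with means of 138 to 144 CPM in the stem-like clusters, 142 to 188 CPM in the transit-amplifying-like ones and 168 to 198 CPM in the enterocyte-like clusters measured in all 6 libraries. Clusters were formed from these same cells, so their levels are a description with no test.

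**Figure D3:**
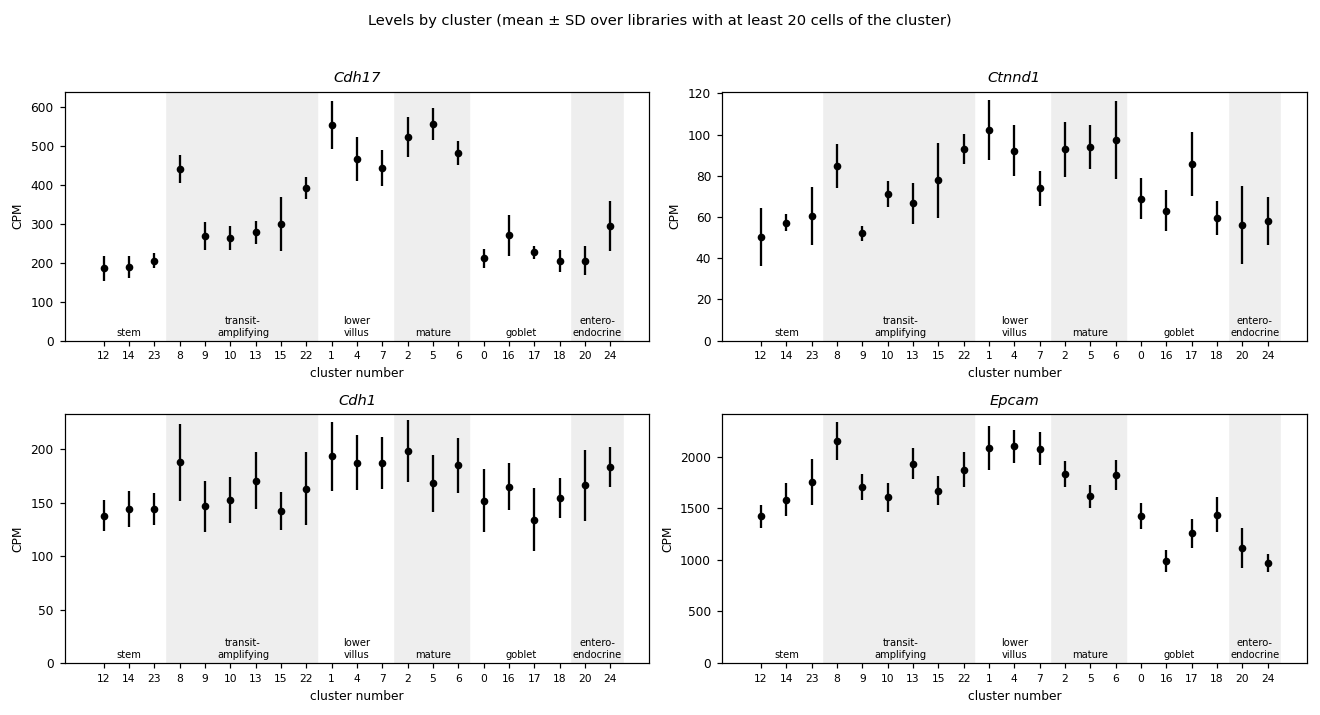
Mean CPM ± SD over libraries of Cdh17, Ctnnd1, Cdh1 and Epcam in each named cluster with at least 20 cells in 3 or more libraries, grouped by class from stem-like cells on the left to enteroendocrine-like cells on the right. Transit-amplifying-like clusters 8 and 22 stand above the other clusters of their class for Cdh17 (440.0 and 393 CPM against 264 to 299.6 CPM) and enterocyte-like clusters stand highest.

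In the secretory classes the 8 genes went separate ways. In goblet-like cells, which make mucus, 5 of 8 were called higher than in stem-like cells, where 30.7% of all genes were called higher and 39.9% lower: Vcl by 0.63 ± 0.10, Ctnnd1 by 0.58 ± 0.07, Cdh17 by 0.52 ± 0.06, Cdh1 by 0.35 ± 0.05 and Ctnna1 by 0.28 ± 0.05 on the log2 scale. With total UMIs as the only scaling, which moved the median of all genes to -0.37 from -0.10, Cdh1 (0.08) and Ctnna1 (0.01) were no longer called and Ctnnb1 (-0.27), Jup (-0.34) and Epcam (-0.34) were called lower. Relative to the median of all genes, Vcl, Ctnnd1, Cdh17, Cdh1 and Ctnna1 stood 0.38 to 0.74 higher and Ctnnb1, Jup and Epcam 0.02 to 0.11 higher under both scalings. The likeness of the scalings on this measure is built in.

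Enteroendocrine-like cells, the hormone-producing class, had 4 of the 8 genes lower than stem-like cells and none higher, where 29.7% of all genes were called lower and 27.3% higher. Epcam had 1262, 1174 and 860.4 CPM in enteroendocrine-like cells of the libraries labelled Itgb7 KO and 1310.0, 1179 and 972 CPM in those of WT, all below every stem-like value, and the log2 fold change was -0.73 ± 0.07 (edgeR adjusted p = 2.64e-11). Vcl was lower by a log2 fold change of -0.78 ± 0.23, from 2 to 21 UMIs per library. Jup (-0.25 ± 0.07) and Ctnnb1 (-0.22 ± 0.05) were called lower as well, but not with total UMIs as the only scaling, where they stood at -0.02 and 0.02. Under that scaling Cdh1 (0.28), Cdh17 (0.30) and Ctnna1 (0.25) were called higher, while Epcam (-0.50) and Vcl (-0.54) were again called lower. Cdh17 was called lower (-0.23) with doublets kept, and Vcl stood at 0.15 with barcodes of at least 10000 UMIs alone, so their directions flip between settings. Of the 30 to 171 cells per library in this class, WT 1 had the fewest.

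Paneth-like cells, which secrete antimicrobial proteins at the crypt base, reached 20 cells only in the libraries labelled Itgb7 KO 1 and WT 1, with 78 and 108 cells. Cdh1 had 53.0 CPM in Paneth-like cells of the library labelled Itgb7 KO 1 and 51.2 CPM in those of WT 1, against 162 and 156 CPM in their stem-like cells. Counted per cell the order of the classes turned round, with 3.60 and 4.89 UMIs of Cdh1 per Paneth-like cell against 3.31 and 3.73 per stem-like cell in the same libraries. Epcam was lower on both scales, with 21.2 and 29.2 UMIs per Paneth-like cell against 31.4 and 36.5 per stem-like cell. With TMM scaling Vcl (0.80), Cdh17 (0.32) and Cdh1 (0.30) were called higher and Epcam (-0.44) lower than in stem-like cells, where 22.9% and 23.9% of all genes were. With total UMIs alone all 8 were called lower, by -1.15 to -2.40 beside a median of all genes of -1.98, so the direction of all but Epcam and Ctnna1 flips with the scaling. Tuft-like cells reached 20 cells in the libraries labelled Itgb7 KO 2 and 3 alone, with 26 and 23 cells. Of the 8 genes only Epcam was called in them, lower than in stem-like cells by a log2 fold change of -0.69 ± 0.12, where 8.24% of all genes were called lower; the median of all genes there was -0.44.

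Ordered by mean CPM over the 6 classes with enough cells in every library, lower-villus or mature enterocyte-like cells stood first for each of the 8 genes. With total UMIs as the scaling, which is the scale of that order, the leading pair of classes did not differ beyond the spread over libraries for 7 genes. For Epcam the leading class, lower-villus enterocyte-like cells, was 0.21 ± 0.06 above the next, transit-amplifying-like cells (edgeR adjusted p = 0.00107). On this CPM scale the lowest class was stem-like cells for Cdh1, Cdh17, Ctnna1 and Ctnnd1, goblet-like cells for Ctnnb1 and Jup, and enteroendocrine-like cells for Vcl and Epcam. Stem-like and goblet-like cells, the lowest pair for Cdh1 and Ctnna1, were not called different for either (goblet-like over stem-like by 0.08 ± 0.05 and 0.01 ± 0.06). For Cdh17 goblet-like cells stood 0.25 ± 0.06 above stem-like cells (edgeR adjusted p = 0.000224). The low end of the order was not the same with TMM, the scaling of the main test. Enteroendocrine-like cells then stood below goblet-like cells for Jup (-0.18 ± 0.07, edgeR adjusted p = 0.03). Against stem-like cells Ctnnb1 stood at -0.22 ± 0.05 in enteroendocrine-like and 0.0 ± 0.04 in goblet-like cells. Ctnnd1 in enteroendocrine-like cells stood at -0.06 ± 0.1 against stem-like cells and was not called.

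Across the 36 sums of these 6 classes and 6 libraries, which share libraries and depth, the 8 genes varied together to unequal degree. The log CPM of Cdh17 correlated with that of Ctnnd1 at r = 0.84 and with that of Ctnna1 at r = 0.76, but with that of Cdh1 at r = 0.32. Cdh1 was closest to Jup (r = 0.59), and Vcl with Ctnna1 gave r = -0.12. The Vcl correlations include the enteroendocrine-like sums, in which Vcl had 2 to 21 UMIs per library, and the weight of these sums was not tested. Over all 40 sums of at least 20 cells, the genes most like Epcam among 3493 compared were Klf5 (r = 0.967) and Cldn7 (r = 0.961), a claudin that binds Epcam. These values dropped to 0.906 and 0.856 over the 36 sums. For Cdh1 the closest was Fis1 at r = 0.917, which dropped to 0.818 over the 36 sums.

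Other genes of the adhesion system were described by lists of their roles, in mature enterocyte-like against stem-like cells. All 6 tested genes of the microvillar cadherin complex, which links the tips of brush-border microvilli, were called higher, with a median log2 fold change of 1.67: Cdhr5, a microvillar protocadherin, rose by 3.14 ± 0.10, its scaffold Anks4b by 2.40 ± 0.09, Cdhr2 by 2.02 ± 0.10 and Ush1c by 1.32 ± 0.06. Cdhr5 averaged 284 ± 61.6 CPM in mature enterocyte-like and 37.8 ± 7.54 CPM in stem-like cells (SD, n = 6). Both tested desmosomal cadherins rose, Dsc2 by 0.92 ± 0.07 and Dsg2 by 0.57 ± 0.07. All 4 tested repressors of E-cadherin transcription were called lower. Tcf3 averaged 31.8 ± 2.74 CPM in mature enterocyte-like and 71.5 ± 3.91 CPM in stem-like cells, Tcf4 averaged 8.00 ± 1.86 CPM in mature enterocyte-like and 18.8 ± 3.35 CPM in stem-like cells, and Snai2 and Snai3 stayed at a mean of 1.92 CPM or less in both.

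The remaining lists were mixed. Of 15 tested actin linkers beside vinculin 10 were called higher, such as Myh14, a non-muscle myosin (2.57 ± 0.08), and Tjp1, a tight-junction scaffold (1.41 ± 0.07), and 5 lower, such as Actn1, an actin crosslinker (-1.77 ± 0.08). Of 11 partners and proteases of Epcam 8 were higher, among them Cldn3 (1.43 ± 0.10) and the protease inhibitor Spint1 (1.33 ± 0.06), and 2 lower, among them the tetraspanin Cd9, at 35.6 ± 12.3 CPM in mature enterocyte-like and 163 ± 40.0 CPM in stem-like cells. Of 11 other catenin and desmosomal plaque genes 7 were higher and 4 lower, of 9 nectin-system genes 5 and 2, and of 13 genes of E-cadherin turnover 7 and 3. Of 14 epithelial activators 4 were higher, such as Hnf4g (1.72 ± 0.10), and 8 lower, such as Foxa3 (-3.13 ± 0.16). Of 15 β-catenin destruction and nuclear partners 5 were higher and 6 lower, the largest fall being that of Tcf7, a partner of β-catenin (-3.93 ± 0.26). Of the lymphocyte receptors of E-cadherin Itgb7 was the 1 gene tested and was called higher, at 0.235 ± 0.324 CPM in mature enterocyte-like and 0.0188 ± 0.0461 CPM in stem-like cells, levels of a few UMIs. With total UMIs alone the microvillar, desmosomal and repressor counts were the same, while the plaque list stood at 5 higher and 4 lower, the linkers at 8 and 5, the Epcam partners at 6 and 2, the activators at 3 and 10, the β-catenin partners at 5 and 9, the turnover list stood at 4 higher and 4 lower and the nectin list at 4 and 4. The lists were chosen with earlier results of these data known, and their direction is not independent evidence.

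**Figure D4:**
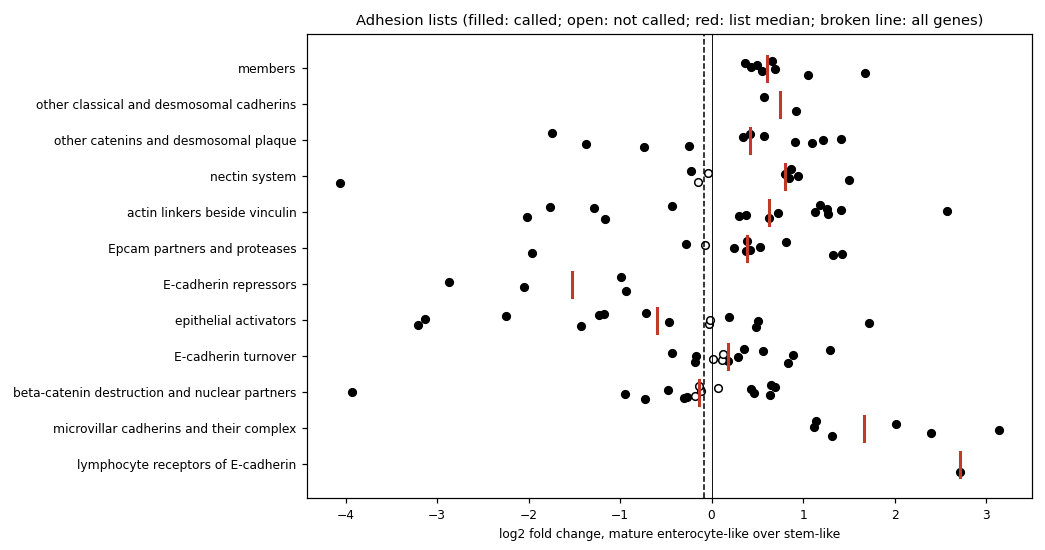
Log2 fold change of mature enterocyte-like over stem-like cells for each tested gene of 12 adhesion lists, filled where called and open where not, with the list median as a red bar and the median of all genes (-0.08) as a broken line. The 8 genes and the microvillar cadherin complex lie wholly to the right of 0, and the E-cadherin repressors wholly to the left.

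Between the genotypes, none of the 8 genes was called in any class. Cdh1 had 179.9, 145 and 134 CPM over all kept cells of the libraries labelled Itgb7 KO 1 to 3 and 162, 165 and 177 CPM in WT 1 to 3. The WT values lie within the range of the libraries labelled Itgb7 KO, and the log2 fold change was -0.16 ± 0.19 (95% interval -0.52 to 0.21; edgeR adjusted p = 0.951). Single libraries moved it: it was -0.38 (adjusted p = 0.223) without the library labelled Itgb7 KO 1, -0.06 without Itgb7 KO 2, -0.05 without Itgb7 KO 3 and -0.08 without WT 1, and over all alternatives run it ranged from -0.38 to -0.05 with adjusted p of 0.223 to 1. Of 13556 genes tested over all kept cells 0.00738% were called, 0.00951% in lower-villus enterocyte-like cells, 0.00898% in goblet-like cells and 0.0% in the other classes, so 0 of 8 genes is near a background with hardly any calls. Over all kept cells DESeq2 called 25 genes, and 420 genes had an unadjusted edgeR p under 0.05. Over the 7 comparisons 55 values of the 8 genes could be tested with edgeR (Vcl was not tested in enteroendocrine-like cells); 0 had an unadjusted p under 0.05, with the lowest at 0.157, and DESeq2 also called 0 and had 0 with an unadjusted p under 0.05. Paneth-like and tuft-like cells had too few libraries for this test.

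The intervals come from the fit without a block, and they bound what that fit of these libraries could show. Over all kept cells the 95% intervals of the log2 fold change were -0.08 to 0.39 for Cdh17, -0.26 to 0.25 for Ctnnb1, -0.20 to 0.27 for Ctnna1, -0.27 to 0.16 for Ctnnd1, -0.48 to 0.09 for Jup, -0.37 to 0.25 for Vcl and -0.19 to 0.29 for Epcam. They do not show that the groups are alike. Over all kept cells, fewer cells of a class and less RNA of a gene in each cell cannot be told apart. The class tests hold each class apart, and there the interval of Cdh1 was -0.47 to 0.16 in stem-like cells and -0.55 to 0.21 in mature enterocyte-like cells.

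**Figure D5:**
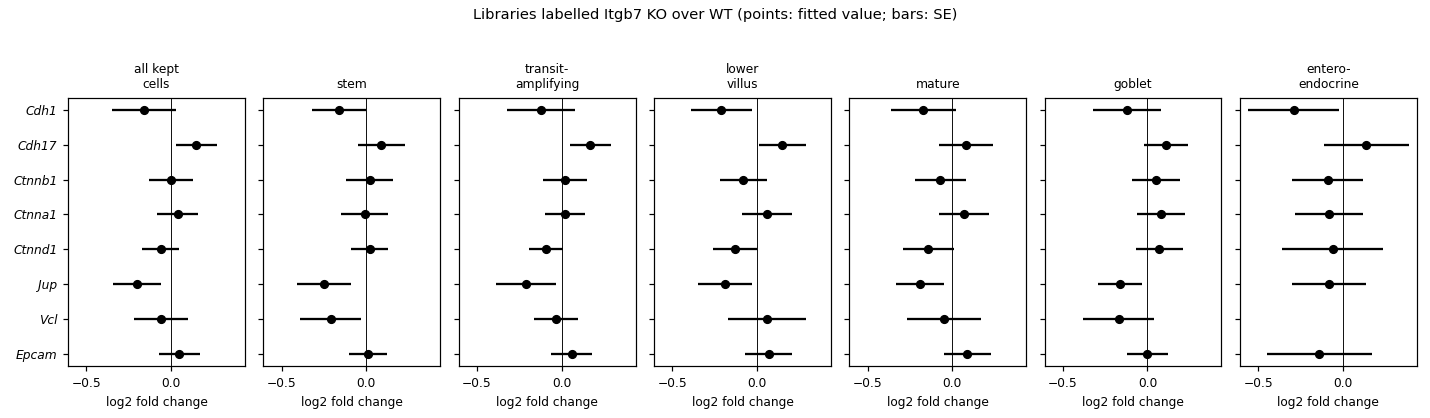
Fitted log2 fold change ± SE of the libraries labelled Itgb7 KO over WT for each of the 8 genes, in all kept cells and in 6 classes. Cdh17 points lie to the right of 0 and Cdh1 and Jup points to the left in every panel, and none was called.

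One of the 55 comparisons had groups that did not overlap. In transit-amplifying-like cells Cdh17 had 319.7, 364 and 340.4 CPM in the libraries labelled Itgb7 KO and 307, 316 and 277 CPM in WT, each value of the one group above each of the other. The log2 fold change was 0.17 ± 0.12 (95% interval -0.05 to 0.40; edgeR adjusted p = 0.949). In that class 7.33% of the 11770 genes tested had groups without overlap, and 2.87% had the libraries labelled Itgb7 KO higher. None of the 8 genes tested had such groups over all kept cells, where 5.42% of all genes did, nor in stem-like cells (7.26%), lower-villus or mature enterocyte-like cells (8.84% in each) or goblet-like cells (6.68%), nor any of the 7 tested in enteroendocrine-like cells (5.39%). The transit-amplifying-like class includes cluster 8, with its high Cdh17, and the share of clusters in the class was not compared between the groups.

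The file names carry serial numbers, which were grouped here into 2 sets, with replicate 1 of each group in the first and replicates 2 and 3 in the second. WT 3 has a serial prefix that no other library shares, so the second set is not uniform. The Cdh1 difference ran in opposite directions in the sets. On the CPM scale over all kept cells the libraries labelled Itgb7 KO stood 0.15 above WT in log2 in the first set, with 1 library in each group and no test, and 0.30 below (a log2 difference of -0.30) in the second. The same signs held in all 6 classes, from 0.05 to 0.14 in the first set and from -0.25 to -0.42 in the second. Jup had log2 differences of -0.04 in the first set and -0.23 in the second over all kept cells, and Cdh17 of 0.05 and 0.25. By class the signs of the sets parted for Cdh17 in stem-like (-0.14 and 0.23), mature enterocyte-like (-0.02 and 0.12) and goblet-like cells (-0.04 and 0.17), and for Jup in enteroendocrine-like cells (0.12 and -0.10).

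Whether the way from stem-like to mature enterocyte-like cells differed between genotypes was tested directly, as an interaction of genotype and class. The interaction was fitted for transit-amplifying-like, lower-villus enterocyte-like and mature enterocyte-like cells, each against stem-like cells, and not for the steps between the later classes. Of the 8 genes 0 were called in any of these 3 contrasts, with edgeR adjusted p of 1 throughout and 0 of 24 values with an unadjusted p under 0.05, and of all 13898 genes 0.0% were called; 301, 467 and 581 of them had an unadjusted p under 0.05, and DESeq2 was not run for this test. For Cdh1 the difference between the genotypes in the mature over stem-like fold change was 0.01 ± 0.10 (95% interval -0.19 to 0.20), and for Cdh17 it was 0.03 ± 0.14 (-0.24 to 0.30).

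Markers of other cells and RNA quality were read beside these values. The 15 T-cell markers summed to 1.35 to 1.5 CPM over all kept cells in the libraries labelled Itgb7 KO and 1.80 to 3.96 CPM in WT, without overlap. The defining marker Cd3e had 0, 0 and 0 UMIs in the libraries labelled Itgb7 KO and 5, 5 and 4 in WT, and Cd8a had 0, 0 and 0 UMIs in the libraries labelled Itgb7 KO and 4, 0 and 0 in WT. Cd3g, Cd7, Gzmb, Nkg7 and Klrd1 were at 0 in every library labelled Itgb7 KO and in WT 2 and WT 3, and had 1 to 9 UMIs in WT 1 alone. Other T-cell markers were found in both groups. Itgae, the αE chain, had 16, 8 and 11 UMIs in the libraries labelled Itgb7 KO and 24, 23 and 22 in WT. For Cd52 the UMIs were 4, 7 and 1 against 10, 1 and 7 in WT, and for Cd2 0, 0 and 2 against 1, 0 and 1. Cd3d had 0, 1 and 0 against 8, 0 and 0 in WT, and Ptprc 0, 0 and 1 against 2, 0 and 0. Gzma had 0, 0 and 0 UMIs in the libraries labelled Itgb7 KO and 47, 1 and 0 in WT, Ccl5 had 3, 1 and 0 in the libraries labelled Itgb7 KO and 125, 0 and 0 in WT, and Lck, which had the most UMIs in 5 libraries, had 58, 63 and 23 in the libraries labelled Itgb7 KO and 43, 76 and 90 in WT. Mitochondrial transcripts took 40300.0 to 52500.0 CPM in the libraries labelled Itgb7 KO and 35700.0 to 43000.0 CPM in WT, and the dissociation genes 1490.0 to 2670.0 CPM in the libraries labelled Itgb7 KO and 1400.0 to 2500.0 CPM in WT. Their part in the genotype values was not tested.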

How the data were processed

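The authors deposited 1 matrix of raw UMI counts for each of the 6 libraries. Cell Ranger 2.1.1, bcl2fastq 2.17.1.14, Seurat and the mm10 build are named in the submitters' processing notes, without their roles, and counting options are not given in the sources used here. Library totals ran from 28475253 to 76133693 UMIs. Barcodes with at least 500 genes, 1000 UMIs and at most 25% mitochondrial UMIs were kept. Scrublet's automatic threshold marked under 0.5% in 5 libraries, so the highest-scoring 0.8% per 1000 barcodes were removed as doublets, 969 in all. Cells were clustered (scanpy 1.11.5; 2000 variable genes, 30 components corrected for library, Leiden resolution 1.5, 26 clusters), and clusters were named where markers of a class led. Ties among the 10 genes of highest fold went to the class with more markers among the first 50. Mature enterocyte-like clusters 2 (910 cells) and 6 (1694 cells) were named in this way, with lower-villus enterocyte as the tied class. Clusters 11 (502 cells, led by mitochondrial genes) and 19 (105 cells) stayed unnamed.

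UMIs were summed per library and class where at least 20 cells existed. The main test was edgeR 4.0.16 (TMM scaling, filterByExpr, quasi-likelihood), adjusted over all genes tested at 0.05; SE is the size of the log2 fold change divided by the square root of F, and intervals are 1.96 SE. DESeq2 1.42.0, other scalings, filters, cell sets and left-out libraries were alternatives, and the test was tried on simulated counts first. For the genotype tests a block on the replicate number and a block on the serial set were alternatives too. CPM is UMIs of a gene per 1000000 UMIs of the class, and UMIs are counted molecules. The intervals of the log2 fold changes rest on the variation among libraries in the edgeR fit. Over 3707 genes the deviations of same-numbered libraries from their group means correlated at r = 0.86, 0.58 and 0.51, but the library labelled Itgb7 KO 3 correlated more closely with WT 2 (r = 0.77) than with WT 3, and the library labelled Itgb7 KO 2 with WT 3 at r = 0.44. The labels state no pairing, and the replicate number was used as a block in an alternative test alone. That use did not depend on these values, which do not single out the pairs among replicates 2 and 3. All 8 genes were named in every comparison, and of each list up to 4 called genes by size of change. The gene most like Cdh17 is not reported here. The 8 genes, the lists and the tests were chosen with earlier results of these data known. Promoters are from RefSeq, GRCm38.p6.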

Additional observations from a re-analysis of the deposited data

Results flagged for a closer look

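Each gene's 6 library values in a class or in all kept cells were examined for a highest or lowest library whose gap to the nearest, over the range, passes Dixon's 95% critical value for 6 samples. Chance flags about 1 in 20 groups, and 5 of 56 groups passed. Jup stood high in WT 3, at 119.2 CPM over all kept cells (other libraries 84.02 to 95.86 CPM), at 149.7 CPM in lower-villus enterocyte-like cells (others 106.9 to 119.4 CPM) and at 134.6 CPM in mature enterocyte-like cells (others 94.75 to 109.6 CPM). Cdh17 stood low in mature enterocyte-like cells of the same library, at 442.9 CPM (others 516.9 to 547.0 CPM). Ctnna1 stood high over all kept cells in the library labelled Itgb7 KO 2, at 115.4 CPM (others 99.5 to 104.6 CPM). All 8 genes remained higher in mature enterocyte-like than in stem-like cells without WT 3 and without the library labelled Itgb7 KO 2.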

How the results depend on the processing

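All 8 genes were called higher in mature enterocyte-like than in stem-like cells under each of the 16 alternatives run, and the genotype comparisons gave 0 called values among 912 alternative ones (lowest adjusted p 0.223; 82 changed sign without being called). With the replicate block, which pairs same-numbered libraries, 0 of the 8 genes were called in each genotype comparison, as without it, and the interaction of genotype and class gave 0 under every alternative run. Counts of called genes that moved: mature against lower-villus enterocyte-like, 3 in the main test, was 1 with total UMIs as the only scaling (Epcam, lower), 0 with no filter, with no correction for library, with adhesion genes kept in clustering, in WT alone and in the libraries labelled Itgb7 KO alone, and 0 to 2 with 1 library left out. Paneth-like against stem-like, 4, was 8 with total UMIs, all lower beside a median of all genes of -1.98. It was 2 with no correction, 2 in the libraries labelled Itgb7 KO alone, 1 in WT alone and 2 to 4 with 1 library left out. The share of all genes called under each alternative is not given here, and some alternatives use fewer libraries. The counts in this paragraph are therefore not results particular to the 8 genes. Transit-amplifying-like against stem-like, 7, was 2 with doublets kept, where the cells were also clustered and named anew. Enteroendocrine-like against stem-like, 4, was 2 in the libraries labelled Itgb7 KO alone. Reversed with total UMIs against stem-like cells were Cdh1 (-1.65), Cdh17 (-1.64), Ctnnb1 (-1.87), Ctnnd1 (-1.72), Jup (-1.83) and Vcl (-1.15) in Paneth-like, Ctnnb1 in goblet-like (-0.27) and Ctnnb1 in enteroendocrine-like cells (0.02). The shift of the median of all genes with this scaling is built into it. Also reversed were Ctnnb1 in transit-amplifying-like cells with DESeq2 (-0.07), Ctnnd1 (0.38) and Vcl (0.15) in enteroendocrine-like cells with barcodes of at least 10000 UMIs, Cdh17 with doublets kept in Paneth-like (-0.03) and enteroendocrine-like cells (-0.23), and Cdh17 in Paneth-like cells with no correction (-0.01); the cause was not tested. Vcl was limited by depth, with 2 to 21 UMIs per library in enteroendocrine-like cells. The contrasts of all class pairs with total UMIs and the tests within the second serial set were chosen after seeing the data.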
